A study of Mus musculus with 6 samples.

Results

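The semaphorins, plexins and neuropilins are a ligand and receptor system, and its genes were followed here in somatosensory cortex with and without the transcription factor gene *Mef2c*. Members were chosen by gene symbol: the semaphorins of classes 3 to 7 (*Sema3a* to *Sema7a*), the plexins *Plxna1* to *Plxna4*, *Plxnb1* to *Plxnb3*, *Plxnc1* and *Plxnd1*, and the neuropilins *Nrp1* and *Nrp2*. This gave 31 of the 21667 named genes, made up of 20 semaphorins, 9 plexins and 2 neuropilins. All 31 had a read count in every mouse and all 31 were among the 14639 genes tested.

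Semaphorins are guidance cues, secreted in class 3 and bound to the membrane in the other vertebrate classes. Plexins are their main receptors and carry an inner domain that acts on small GTPases of the Ras and Rap family, while neuropilins bind most class 3 semaphorins and hand the signal to A-type plexins. In the cortex the system is known for steering axons, shaping dendrites and limiting or promoting synapses, among them the loss of dendritic spines under *Sema3f*, *Nrp2* and *Plxna3*.

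RNA came from 3 control and 3 *Mef2c* cKO male mice of mixed strain (SVeV-129; C57BL/6J). Both genotypes carried floxed *Mef2c* on both alleles, and the cKO mice also carried Cre at the *Emx1* locus, which is active from embryonic life in most excitatory neurons of the forebrain and in some glia. The controls were littermates with no Cre, so Cre itself and 1 intact *Emx1* allele are not matched between the groups. Replicate 1 of each genotype was 14 weeks old and replicates 2 and 3 were 12 weeks old. Levels are given as CPM, the reads of a gene scaled to the reads that its library holds on named genes, computed from whole read counts that were recovered from the deposited RPKM values. Values listed for a genotype follow the order of replicates 1, 2 and 3.

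The libraries held 19326365 to 54128334 reads, and log2 CPM correlated at r = 0.992 to 0.995 across genes within a genotype and at 0.978 to 0.981 between genotypes. *Mef2c* itself was at 801, 772 and 801 CPM in the control mice and at 1232, 1277 and 1469 CPM in the mice labelled cKO, a log2 fold change of 0.74 ± 0.07 (SE, n = 3 per genotype; limma, adjusted p = 0.000175). These are reads on the whole gene. The deleted part cannot be seen in one value per gene, so this level, higher and not lower in the mice labelled cKO, does not check the deletion. *Emx1*, the gene into which Cre was inserted, was at 16.5, 20.3 and 18.9 CPM in the controls and at 5.72, 4.97 and 5.10 CPM in the mice labelled cKO. All 15 excitatory neuron markers had reads in every library. Summed marker levels did not overlap between genotypes for oligodendrocyte precursors (213 to 229 CPM in controls and 245 to 279 in the mice labelled cKO, 2 of 6 markers up) and microglia (241 to 267 and 223 to 236, 0 of 10 past the cut-offs in the limma fit and 3 lower at an unadjusted p under 0.05). The interneuron sum (1129 to 1238 and 1307 to 1463 CPM) did not overlap either, but without *Cck* it did (887 to 973 and 924 to 993), and of the 14 markers *Sst*, *Npy*, *Cck* and *Htr3a* rose and *Pvalb* fell. The astrocyte sum (4910 to 5215 and 4344 to 4613 CPM) overlapped without *Slc1a2* (1606 to 1675 and 1596 to 1762), and of its 10 markers *Gfap* and *Aqp4* rose and *Aldh1l1* fell. The part of these cells in the values that follow was not tested. Genotypes below are those of the labels, and each direction runs from control to the mice labelled cKO.

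Across the family, 10 of 31 members passed the cut-offs of an adjusted p under 0.05 and an absolute log2 fold change above 0.3, where 13.7% of all tested genes did. Of these, 7 were higher in the mice labelled cKO, against 5.88% of all genes: *Nrp1*, *Nrp2*, *Plxna1*, *Plxna4*, *Plxnb3*, *Sema6c* and *Sema6d*, by 31.3% to 47.5%. The other 3 were lower, against 7.79% of all genes: *Sema3f* fell by 46.6%, *Plxnc1* fell by 38.3% and *Plxnd1* fell by 37.7%. Both neuropilins rose, both of the C- and D-type plexins fell, and no class 4, class 5 or class 7 semaphorin passed. The median log2 fold change was 0.11 over the 31 members and 0.01 over all tested genes. The genotypes did not overlap in 14 members and in 33.8% of all tested genes. In 11 of the 14 each mouse labelled cKO was above every control (16.3% of all genes), and in 3 each was below (17.5%).

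**Figure D1:**
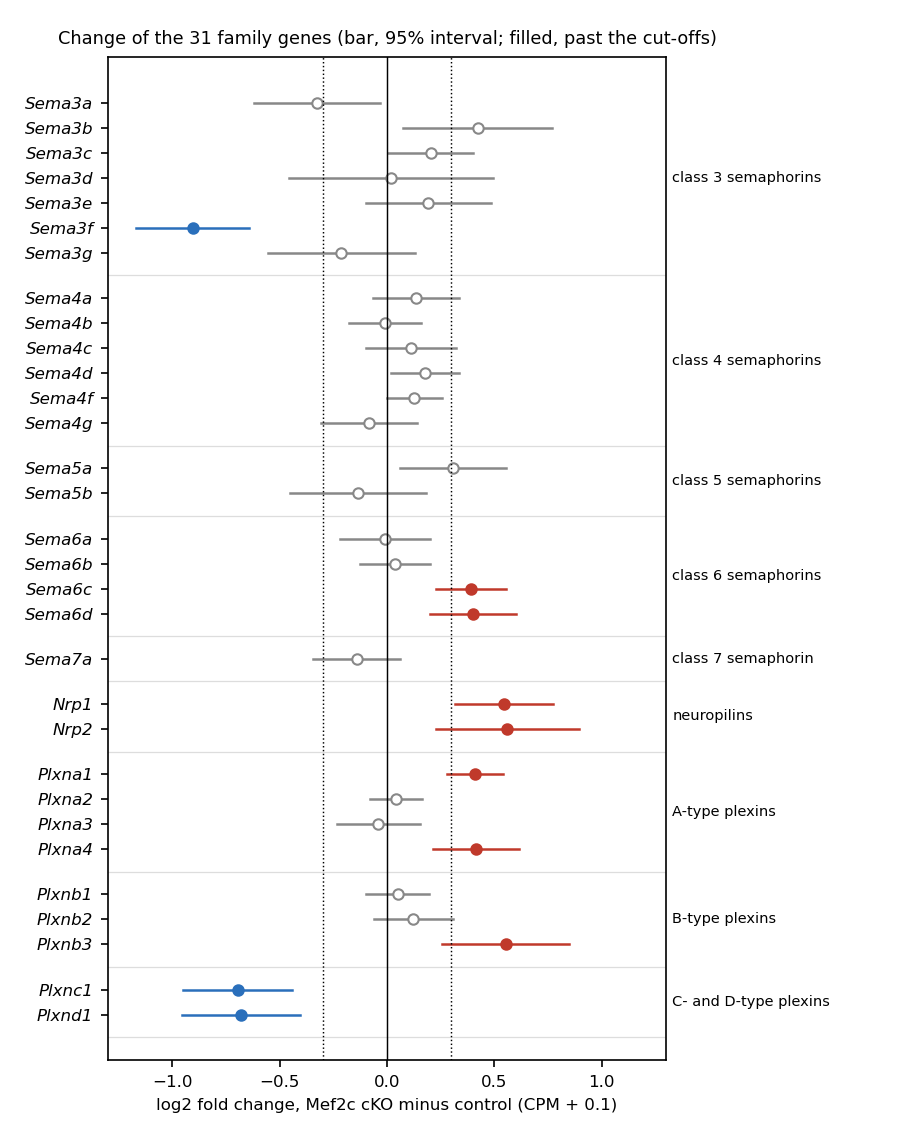
Log2 fold change of each of the 31 genes, mice labelled cKO minus control, by class; points are limma estimates on log2(CPM + 0.1), bars are 95% intervals, dotted lines mark 0.3 in either direction and filled points passed the cut-offs. *Sema3f*, *Plxnc1* and *Plxnd1* lie at -0.90, -0.70 and -0.68, and the 7 increased genes lie between 0.39 and 0.56.

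Promoter sequence is shown for members that changed together within a subfamily, the 2 neuropilins that rose and the C- and D-type plexins that fell. The first listed start of *Sema6d* is also shown, as the only member window with a match to the MEF2 consensus described below. The other *Sema6d* window had no match and is not shown. Each window runs from 250 bases before to 50 bases after an annotated start site, is taken from RefSeq on GRCm38.p6, and is written 5′ to 3′ on the strand of the gene. Capitals mark a match to the MEF2 consensus, an A/T-rich palindrome searched on both strands by its IUPAC letters.
Nrp1, chr8:128358823-128359122, plus strand: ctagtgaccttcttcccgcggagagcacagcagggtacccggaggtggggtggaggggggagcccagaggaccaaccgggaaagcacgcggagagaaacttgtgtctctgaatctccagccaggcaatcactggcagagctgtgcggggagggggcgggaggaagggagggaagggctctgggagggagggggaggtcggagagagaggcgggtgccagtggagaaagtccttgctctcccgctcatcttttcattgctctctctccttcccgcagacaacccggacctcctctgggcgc
Nrp2, chr1:62703067-62703366, plus strand: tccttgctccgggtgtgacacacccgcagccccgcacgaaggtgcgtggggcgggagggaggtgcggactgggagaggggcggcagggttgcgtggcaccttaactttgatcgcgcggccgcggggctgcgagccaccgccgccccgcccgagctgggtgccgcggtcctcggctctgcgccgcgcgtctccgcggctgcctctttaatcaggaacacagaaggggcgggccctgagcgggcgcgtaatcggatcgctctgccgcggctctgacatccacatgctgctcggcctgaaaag
Plxnc1, chr10:94944796-94945095, minus strand: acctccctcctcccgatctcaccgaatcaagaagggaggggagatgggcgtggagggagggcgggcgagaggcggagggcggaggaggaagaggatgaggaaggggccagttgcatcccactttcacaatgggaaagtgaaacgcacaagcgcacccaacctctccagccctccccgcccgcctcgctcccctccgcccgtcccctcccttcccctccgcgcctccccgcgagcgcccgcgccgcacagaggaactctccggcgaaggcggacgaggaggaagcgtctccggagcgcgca
Plxnd1, chr6:115994956-115995255, minus strand: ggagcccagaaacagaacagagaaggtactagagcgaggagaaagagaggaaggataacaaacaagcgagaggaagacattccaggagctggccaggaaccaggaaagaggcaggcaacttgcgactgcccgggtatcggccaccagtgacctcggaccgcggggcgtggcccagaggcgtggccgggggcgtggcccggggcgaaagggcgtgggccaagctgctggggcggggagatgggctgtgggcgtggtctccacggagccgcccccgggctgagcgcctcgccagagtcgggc
Sema6d, chr2:124089719-124090018, plus strand: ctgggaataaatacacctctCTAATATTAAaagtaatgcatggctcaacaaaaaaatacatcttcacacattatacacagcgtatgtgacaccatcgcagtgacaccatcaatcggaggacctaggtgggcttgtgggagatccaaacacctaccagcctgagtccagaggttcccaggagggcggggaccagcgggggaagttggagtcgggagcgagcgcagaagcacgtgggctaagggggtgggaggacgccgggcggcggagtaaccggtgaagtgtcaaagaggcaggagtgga

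Of the 26 members with a window, 1 held a match, against 3.70% of all 27025 genes with a window. *Sema3b*, *Sema3f*, *Plxna1*, *Plxna4* and *Sema6a* had no window. The promoters of *Sema3f*, *Plxna1* and *Plxna4*, which passed the cut-offs, were therefore not searched. The match was CTAATATTAA in 1 of the 2 *Sema6d* windows, starting at position -230 from the start site. The 37 member windows had a median GC content of 63.7%, where all 32851 windows of this length had a median of 52.7%. A window without the letters says nothing about binding by MEF2C, and distal sites were not searched.

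Class 3 holds the secreted ligands. *Sema3f*, the ligand that signals through *Nrp2*, was at 17.3, 19.8 and 17.5 CPM in the controls and at 9.17, 8.70 and 11.3 CPM in the mice labelled cKO. All cKO values lay below all control values. The log2 fold change was -0.90 ± 0.12 (SE, n = 3 per genotype; limma, adjusted p = 0.000721), and *Sema3f* was the only member of the 7 in class 3 to pass. The estimate rested on 168 to 976 reads per library and is for a gene on chromosome 9 (107583833 to 107612806, minus strand, mm9). *Sema3a*, the prototype repellent that signals through *Nrp1*, was at 30.1, 27.6 and 23.9 CPM in the controls and at 24.0, 17.8 and 23.6 CPM in the mice labelled cKO. Its highest cKO value lay above its lowest control value, and it did not pass (log2 fold change -0.33, 95% interval -0.62 to -0.03, limma, adjusted p = 0.135).

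*Sema3e*, which binds *Plxnd1* directly and needs no neuropilin to do so, was at 54.1, 49.9 and 48.3 CPM in the controls and at 56.3, 47.9 and 72.2 CPM in the mice labelled cKO. The genotypes overlapped, and the spread came from 1 cKO mouse (log2 fold change 0.19, 95% interval -0.10 to 0.49). *Sema3b* was above every control in each cKO mouse but at only 2.82 to 5.02 CPM, and it did not pass (log2 fold change 0.42, limma, adjusted p = 0.104). *Sema3c*, *Sema3d* and *Sema3g* had log2 fold changes of 0.20, 0.02 and -0.21, and their genotypes overlapped. The 95% interval for *Sema3d* was -0.46 to 0.49.

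The ligands of classes 4 to 7 are membrane-bound, and 2 of them passed, both of class 6. Of these, *Sema6d*, a ligand of *Plxna1*, was at 89.2, 83.8 and 104 CPM in the controls and at 111, 129.7 and 124 CPM in the mice labelled cKO, without overlap (log2 fold change 0.40 ± 0.09, SE, n = 3 per genotype; limma, adjusted p = 0.0147). *Sema6c* was at 35.0, 37.5 and 37.1 CPM in the controls and at 48.4, 51.2 and 44.5 CPM in the mice labelled cKO, again without overlap (0.39 ± 0.07; limma, adjusted p = 0.0053). The class 6 members *Sema6a* and *Sema6b* had log2 fold changes of -0.01 (95% interval -0.22 to 0.20) and 0.04 (-0.13 to 0.20), so the class did not move as one.

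*Sema6a*, a ligand of *Plxna2* and *Plxna4*, was at 38.7, 35.6 and 43.1 CPM in the controls and at 35.0, 40.0 and 41.7 CPM in the mice labelled cKO. *Sema7a*, a lipid-anchored ligand of *Plxnc1*, was at 254, 233 and 221 CPM in the controls and at 194, 244 and 207 CPM in the mice labelled cKO. Both overlapped between genotypes, and *Sema7a* did not pass (log2 fold change -0.14, 95% interval -0.34 to 0.06). In class 5, *Sema5b* was at 25.8, 30.7 and 29.0 CPM in the controls and at 27.3, 20.6 and 30.9 CPM in the mice labelled cKO. *Sema5a* was higher in each cKO mouse than in any control, but its adjusted p was 0.0962 in the limma fit and its estimate 0.31. Without cKO replicate 3, at 72.9 CPM against 54.2 and 56.2 in the other cKO mice, the estimate was 0.17.

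The 6 class 4 semaphorins, which signal mainly through B-type plexins, had log2 fold changes of -0.08 to 0.18, and in the limma fit 0 passed the cut-offs and 1, *Sema4d*, had an unadjusted p under 0.05. *Sema4d* and *Sema4f* were higher in each cKO mouse than in any control, by 13.2% and 9.23%. *Sema4d* is the ligand of *Plxnb1* that is known to promote inhibitory synapses. Of the 21 members that did not pass, 7 had a 95% interval that lay wholly within 0.3 of no change, and 13 had a positive and 8 a negative estimate.

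Among the receptors, *Nrp1* was at 49.95, 40.1 and 41.4 CPM in the controls and at 70.1, 57.3 and 64.2 CPM in the mice labelled cKO. The lowest cKO value was above the highest control value (log2 fold change 0.54 ± 0.10, SE, n = 3 per genotype; limma, adjusted p = 0.00576). *Nrp2* was at 15.3, 22.8 and 19.2 CPM in the controls and at 28.5, 24.1 and 31.4 CPM in the mice labelled cKO. These values did not overlap either, but the gap between the nearest mice was small (0.56 ± 0.15; limma, adjusted p = 0.031). The call for *Nrp2* was lost when the 12-week-old mice were compared alone (0.39, limma, adjusted p = 0.169) and when control replicate 1 or 3 or cKO replicate 1 or 3 was left out (0.41 to 0.57, limma, adjusted p = 0.0737 to 0.0983), while *Nrp1* passed in each of these fits. *Nrp1* is also a VEGF receptor of blood vessels. The summed level of 10 endothelial markers was 277 to 312 CPM in the controls and 266 to 283 CPM in the mice labelled cKO, and in the limma fit 0 of the 10 passed the cut-offs and 1 had an unadjusted p under 0.05, with a negative estimate. Of 12 mural and meningeal cell markers, 1 rose and 0 fell past the cut-offs. It was *Dcn*, at 7.88, 7.17 and 6.15 CPM in the controls and 50.9, 12.7 and 33.5 CPM in the mice labelled cKO. The part of any of these cells in the neuropilin values was not tested.

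A-type plexins pass on the signal of neuropilins and also bind class 6 semaphorins directly. *Plxna1* was at 147, 144 and 139.6 CPM in the controls and at 201, 182 and 189.6 CPM in the mice labelled cKO, with the cKO mice well clear of the controls (log2 fold change 0.41 ± 0.06, SE, n = 3 per genotype; limma, adjusted p = 0.00109). *Plxna4* was at 135, 138 and 165 CPM in the controls and at 199, 205 and 178 CPM in the mice labelled cKO (0.42 ± 0.09; limma, adjusted p = 0.0114). The 12-week-old mice alone gave 0.34 for *Plxna4*, with a limma adjusted p of 0.112. *Plxna3* was at 26.6, 30.2 and 31.5 CPM in the controls and at 30.2, 27.0 and 28.7 CPM in the mice labelled cKO, fully intermixed. *Plxna2* differed by 2.90% and had a 95% interval of -0.08 to 0.16, so 2 of the 4 A-type plexins rose and the intervals of the other two excluded a change of 0.3.

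*Plxnb3*, a B-type plexin that is found in oligodendrocytes in the brain, was at 24.9, 19.95 and 29.6 CPM in the controls and at 33.3, 37.9 and 37.0 CPM in the mice labelled cKO. Every cKO mouse was above every control (log2 fold change 0.55 ± 0.13, SE, n = 3 per genotype; limma, adjusted p = 0.0191), and in the 12-week-old mice alone the estimate was 0.62 with a limma adjusted p of 0.0709. Oligodendrocyte markers moved with it. Their summed level was 3293 to 5413 CPM in the controls and 5342 to 6864 CPM in the mice labelled cKO, all 10 estimates were positive with a median of 0.51, and 2 of the 10, *Mobp* and *Cldn11*, passed. The part of these cells in the *Plxnb3* value was not tested, and in RNA from tissue, more or fewer cells of a type and more or less RNA per cell cannot be told apart. *Plxnb1* and *Plxnb2*, the receptors of *Sema4d* and of *Sema4c* and *Sema4g*, had log2 fold changes of 0.05 (95% interval -0.10 to 0.20) and 0.12 (-0.06 to 0.31).

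*Plxnd1*, the receptor of *Sema3e*, fell. It was at 139, 160.0 and 144 CPM in the controls and at 95.3, 74.8 and 108 CPM in the mice labelled cKO (log2 fold change -0.68 ± 0.12, SE, n = 3 per genotype; limma, adjusted p = 0.00456). *Plxnc1*, the receptor of *Sema7a*, was at 65.5, 68.8 and 56.5 CPM in the controls and at 44.4, 33.3 and 40.4 CPM in the mice labelled cKO (-0.70 ± 0.11; limma, adjusted p = 0.00265). Neither gene overlapped between genotypes. Some markers of excitatory neuron layers fell in the same mice. *Cux2*, an upper-layer factor, had a mean of 96.2 ± 5.81 CPM in the controls and 28.7 ± 2.50 CPM in the mice labelled cKO (SD, n = 3), and *Rorb*, a layer 4 factor, 26.1 ± 0.861 and 7.74 ± 0.754 CPM. Over the 15 excitatory neuron markers, 4 rose and 5 fell, *Emx1* among them, and their summed level was 6202 to 7332 CPM in the controls and 6340 to 7361 CPM in the mice labelled cKO. Most of that sum is *Camk2a*, *Nrgn* and *Slc17a7*, with control means of 3348, 1248 and 1192 CPM. It therefore says little about the layer genes. What these layer genes share with the levels of *Plxnc1*, *Plxnd1* and *Sema3f* was not tested.

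**Figure D2:**
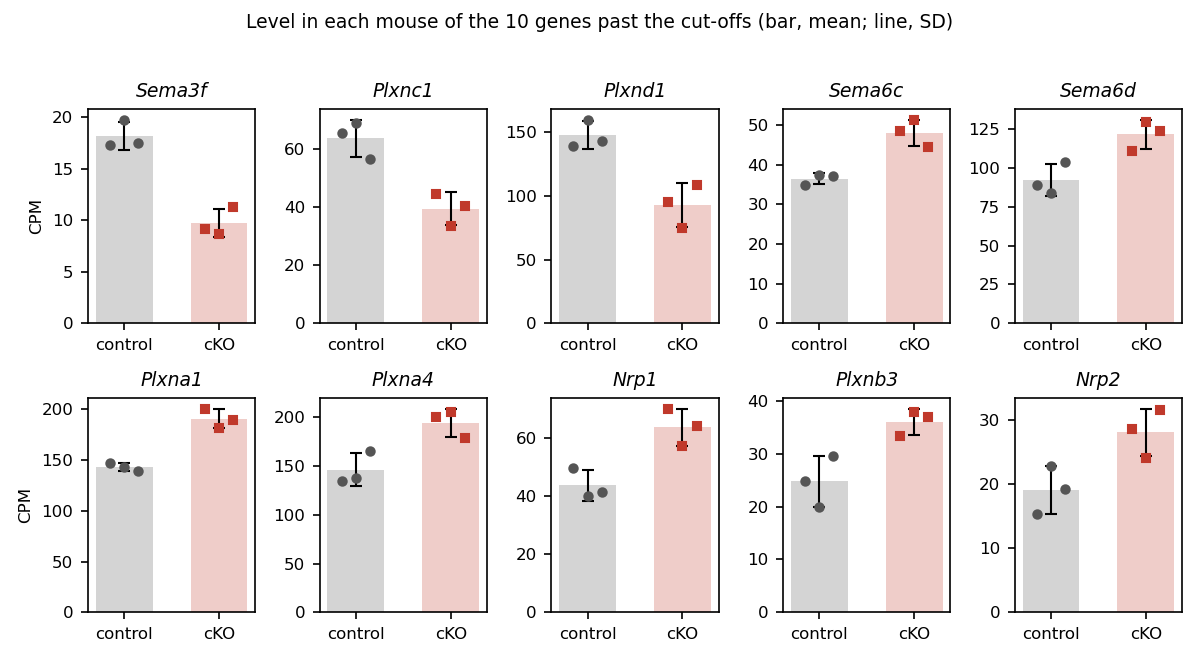
CPM of the 10 members past the cut-offs in each mouse, with controls as circles and mice labelled cKO as squares; bars are means, lines are the SD of 3 mice and each axis starts at 0. *Sema3f* fell from a mean of 18.2 to 9.71 CPM, and *Nrp2*, with a highest control of 22.8 and a lowest cKO value of 24.1 CPM, shows a narrow gap between the genotypes.

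Calls were also made with other settings on the same counts. Of these, the adjusted p alone is the main fit without the cut-off on fold change, so it can lose no call. Genes with a count in all 6 mice were the same 14639 genes, with the same calls. *Sema3f*, *Plxnc1*, *Plxnd1*, *Nrp1* and *Plxna1* passed in all 15 of the other fits. *Plxna4* and *Sema6c* passed in 14 of 15, *Plxnb3* and *Sema6d* in 11, and *Nrp2* in 8. *Plxnb3* missed without cKO replicate 2 (limma, adjusted p = 0.0624) and without cKO replicate 3 (0.0559), and *Sema6d* without control replicate 1 (0.0527), control replicate 2 (0.0558) or cKO replicate 2 (0.0548). *Sema6c* missed in the 12-week-old mice alone (0.36, limma, adjusted p = 0.0573). None of the 21 members that missed the cut-offs passed in any of the 15. In the 12-week-old mice alone, 3 increased and 3 decreased members passed.

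Levels can be compared between genes only per length. The authors assigned reads with a UCSC annotation, while the lengths used here are from gencode. The spread between mice does not measure the error that such a difference puts into the order of genes. Divided by the union of the exons in the gencode annotation of mm9, *Sema7a* was highest in the controls at 71.7 ± 5.06 CPM per kilobase (SD, n = 3), followed by *Sema6b* at 40.2 ± 2.68 and *Plxnd1* at 20.5 ± 1.52, and these neighbours did not overlap. *Plxna1* (15.9 ± 0.408), *Plxnb1* (14.99 ± 0.9002) and *Sema4a* (14.8 ± 0.438) came next, and their mice overlapped from 1 gene to the next. The lowest were *Sema3g* at 1.23 ± 0.0764, *Sema3d* at 0.9505 ± 0.164 and *Sema3b* at 0.799 ± 0.128, of which the last 2 overlapped. In the mice labelled cKO, *Plxna1* at 21.1 ± 1.04 CPM per kilobase was above *Plxnd1* at 12.9 ± 2.36, the reverse of their order in the controls. *Nrp1* exceeded *Nrp2* in both genotypes, at 7.42 ± 0.908 against 2.01 ± 0.391 in the controls and 10.8 ± 1.08 against 2.95 ± 0.389 in the mice labelled cKO.

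**Figure D3:**
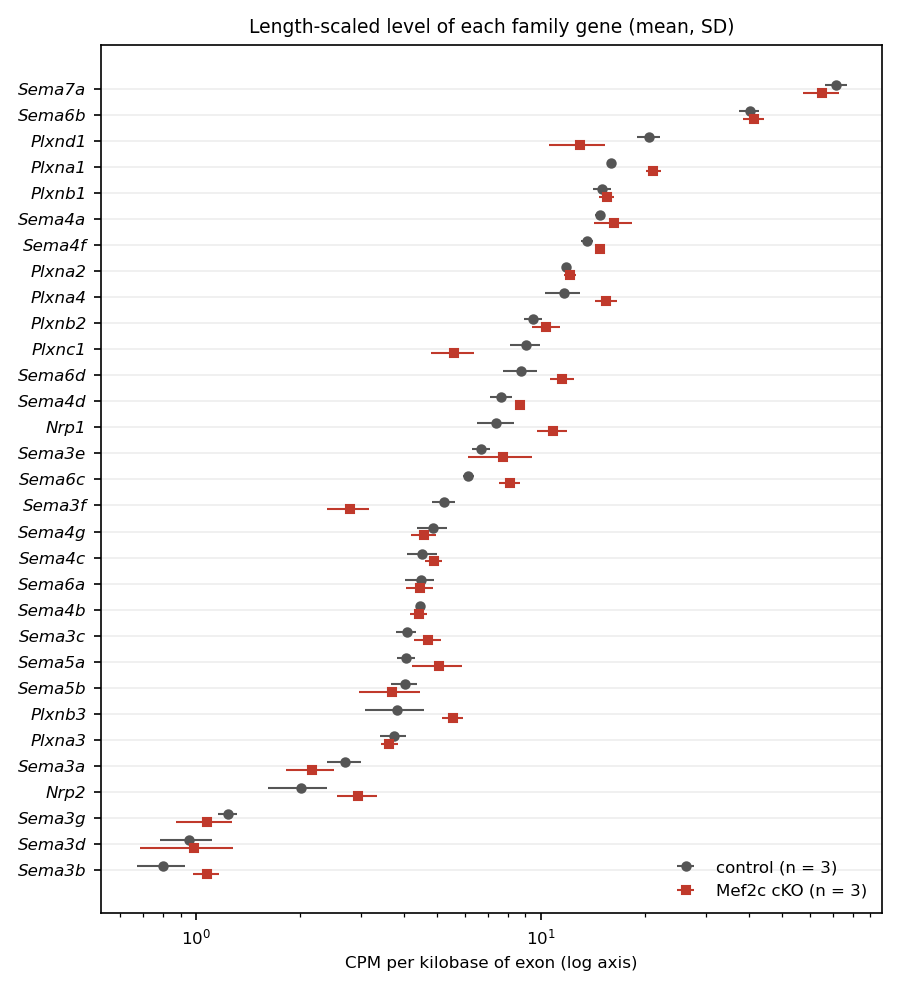
CPM per kilobase of exon for each member on a log axis, ordered by the control mean; circles are controls and squares mice labelled cKO, with bars for the SD of 3 mice. The control means span 0.799 for *Sema3b* to 71.7 for *Sema7a*, and *Sema3f*, *Plxnc1* and *Plxnd1* are the genes whose cKO mean sits clearly to the left.

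The balance between a ligand and its receptor was read from the ratio of their reads within each library, which needs no scaling between libraries. The ratios reuse the reads of the genes described above, so they restate those changes and are not separate evidence. For *Sema3f* over *Nrp2* the ratio was 1.13, 0.868 and 0.91 in the controls and 0.322, 0.361 and 0.358 in the mice labelled cKO, a difference of -1.47 on the log2 scale and the widest of the 14 pairs examined. For *Sema3a* over *Nrp1* it was 0.603, 0.690 and 0.578 in the controls and 0.343, 0.311 and 0.367 in the mice labelled cKO. In that pair *Nrp1* rose past the cut-offs and *Sema3a* did not pass. The ratio of *Sema3f* to *Plxna3* changed from a mean of 0.62 ± 0.0576 to 0.34 ± 0.0468 (SD, n = 3). *Plxna3* alone had a log2 fold change of -0.04, so this ratio mainly repeats the fall of *Sema3f*. In both pairs of a secreted ligand and a neuropilin that were examined, *Sema3f* with *Nrp2* and *Sema3a* with *Nrp1*, the ratio was lower in all 3 mice labelled cKO than in any control.

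The opposite held for *Sema3e* over *Plxnd1*, at 0.389, 0.312 and 0.337 in the controls and 0.590, 0.641 and 0.665 in the mice labelled cKO. Here *Plxnd1* fell past the cut-offs and *Sema3e* did not pass. *Sema7a* over *Plxnc1* was 3.88, 3.39 and 3.92 in the controls and 4.38, 7.33 and 5.11 in the mice labelled cKO, so the widest value came from 1 mouse. For *Sema6d* over *Plxna1*, where both genes rose, the means were 0.644 ± 0.0863 and 0.640 ± 0.0805 and the mice overlapped. A two-sided exact permutation test of 3 mice against 3 cannot give a p below 0.1. That value was reached by each of the pairs that did not overlap and became 0.127 after adjustment over the 14 pairs, several of which share a gene. The mice overlapped only for *Sema4c* over *Plxnb2*, *Sema6a* over *Plxna2* and *Sema6d* over *Plxna1*. Pairs with no partner past the cut-offs also did not overlap, such as *Sema4d* over *Plxnb1* (0.13 on the log2 scale) and *Sema4g* over *Plxnb2* (-0.21). A lack of overlap was thus common among these pairs, and its share among other gene pairs was not computed.

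**Figure D4:**
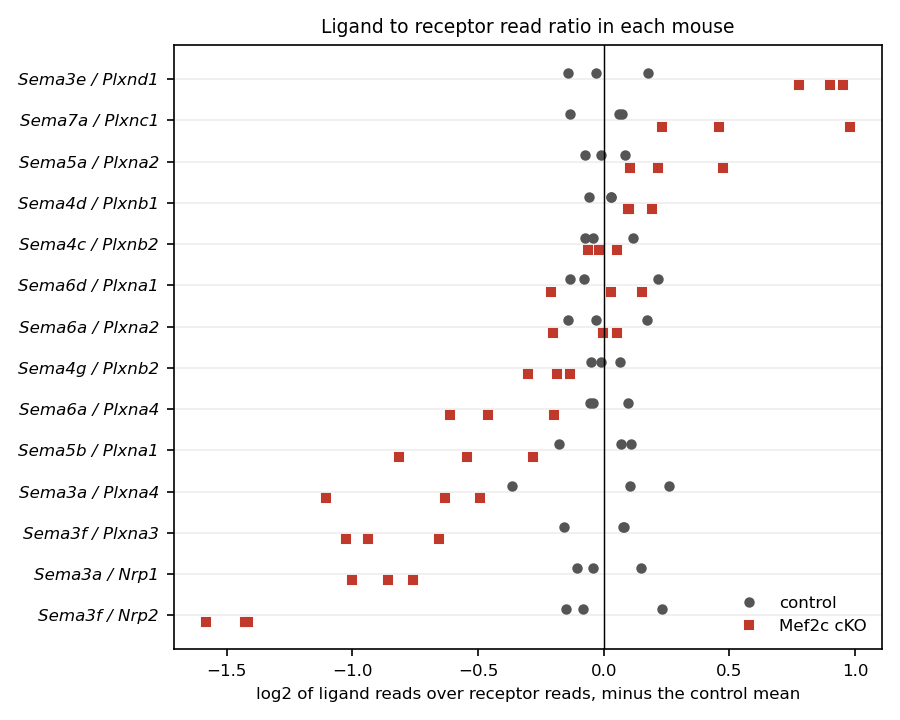
Log2 ratio of ligand reads to receptor reads in each mouse for 14 known pairs, set to 0 at the control mean; circles are controls and squares mice labelled cKO. *Sema3f* over *Nrp2* lies farthest to the left, at -1.47 on average, and *Sema3e* over *Plxnd1* at 0.88 to the right.

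The other genes of the pathway were taken from 2 lists, 15 further co-receptors and 40 cytoplasmic signalling genes, of which 53 were tested. In contrast with the mixed directions among the 31 members, 9 of the 53 fell and 0 rose. Of all tested genes, 7.79% fell and 5.88% rose. The 9 include *Cd72*, which passed the filter on low values only through the controls, and without it 8 of 52 fell. In the limma fit, 15 of the 53 were lower and 3 higher at an unadjusted p under 0.05. Those higher were *Dpysl5*, *Rock2* and *Sdc3*, chosen here after their values were seen. Over all 14639 tested genes, 2161 were lower and 2008 higher at that level. At an adjusted p under 0.05 with no cut-off on the fold change, 0 of the 53 were higher. The median log2 fold change was -0.06 in each list. Among the co-receptors, *Met*, the HGF receptor that associates with B-type plexins, was at 11.1, 11.2 and 10.7 CPM in the controls and at 1.28, 1.19 and 1.18 CPM in the mice labelled cKO (log2 fold change -3.08 ± 0.12, SE, n = 3 per genotype; limma, adjusted p = 1.76e-06). *Cd72*, known as a *Sema4d* receptor of lymphocytes, had 26, 47 and 29 reads in the controls and 3, 2 and 11 reads in the mice labelled cKO, too few for its fold to be given.

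Of the 9 small GTPase genes tested in the cytoplasmic list, 2 fell and 7 did not pass. *Rnd1*, a GTPase that binds the inner domain of plexins, went from a mean of 22.6 ± 3.15 to 11.0 ± 1.13 CPM (SD, n = 3), and *Rras2*, of the R-Ras group on which plexins act, from 23.6 ± 3.29 to 12.3 ± 0.728 CPM. *Rnd2*, *Rnd3* and *Rras* had log2 fold changes of -0.19, -0.31 and 0.14, and *Rap1a*, *Rap1b*, *Rac1* and *Rhoa* lay between 0.01 and 0.09. *Mical1* and *Mical3*, of the actin-oxidizing MICAL family that is linked to A-type plexins, fell by 0.52 and 0.72 on the log2 scale. *Pak1*, a kinase downstream of Rac, fell from 464 ± 24.9 to 289.5 ± 18.6 CPM, while *Pak2* and *Pak3* did not pass. The exchange factors *Farp1* and *Kalrn* fell by 0.43 and 0.32. In each of the 9 pathway genes past the cut-offs, *Met* and *Cd72* among them, the mice labelled cKO lay below all controls. Over the 53 pathway genes tested, 19 lay below all controls and 6 above. Of all tested genes, 17.5% lay below and 16.3% above.

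**Figure D5:**
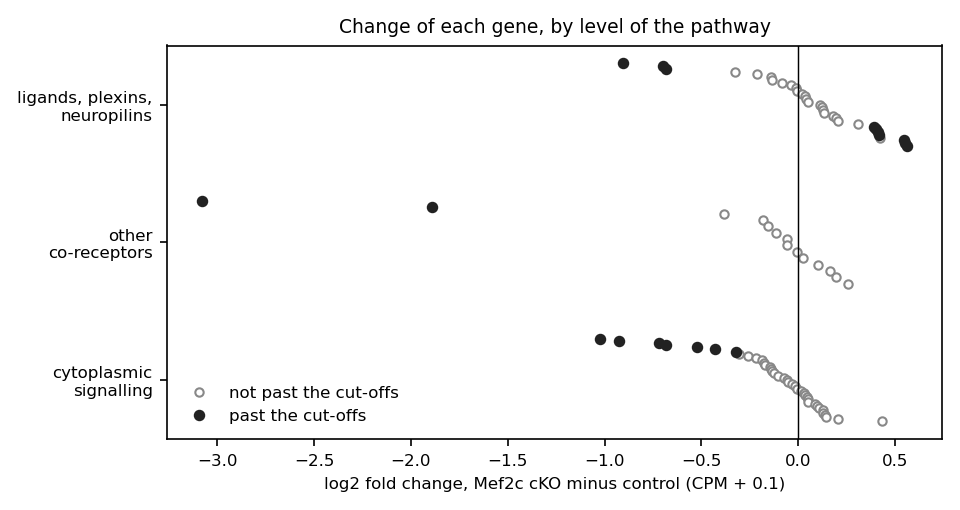
Log2 fold change of the 31 members and of the tested genes of the 2 pathway lists, each point a gene and filled points past the cut-offs. Filled points lie on both sides of 0 for the members, and all 9 of the other pathway genes lie to the left, down to *Met* at -3.08.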

How the data were processed

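RNA from somatosensory cortex was polyA-selected, made into directional libraries and sequenced by the authors, who aligned it to mm9 with TopHat and Bowtie, assigned the reads to genes by HTSeq with a UCSC gene annotation, and deposited RPKM values, one table per mouse. No tool versions are given in the sources used here. Groups, replicate numbers and ages come from the sample labels. Each library is 1 mouse.

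The deposited RPKM values of 1 gene rest on a different length in each table. Between the 3 controls they differed by 1.70 to 121-fold for a member, where the CPM differed by 1.03 to 1.49-fold. The lengths were found to repeat in a fixed cycle, 65 to 296 long, down a list of genes ordered by Entrez number as text. Whole counts were recovered by placing each gene in these cycles: 17798 genes were placed, 99.72% to 99.88% of the values above 0 in a table gave a whole count, and the counts summed to 99.99% of the total found. Values left over were treated as missing. A further 92 rows without a gene name, with 0.0575% to 0.0853% of the reads, were left out. This recovery was chosen after seeing the data. In 6 simulated tables of 21759 genes, all 6 totals were found and 100% of the counts given were right.

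CPM, taken over the reads on named genes, were compared as log2(CPM + 0.1) with limma 3.58.1 in R 4.3.3 (lmFit, eBayes with a variance trend), genotype being the only term, for genes above 0.5 CPM in every mouse of 1 genotype. P-values were adjusted by Benjamini-Hochberg over all 14639 genes. The pseudocount shrinks the fold changes of weakly expressed genes. Counting error alone is large for a member such as *Sema3g*, with 95 reads in 1 library. Pair ratios used exact permutation tests. Marker and pathway genes were only counted.

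The members, lists and pairs were chosen with earlier results of these data known. All members were described, with values per mouse for those past the cut-offs and for both partners of a known ligand and receptor pair with 1 partner past them. Coordinates and exon lengths are from gencode for NCBIM37 (mm9), where 0 of the 31 members share exonic bases with another protein-coding gene, and promoters are from RefSeq on GRCm38.p6. Alternatives were pseudocounts of 0.5 and 1, no filter, genes with a count in all 6 mice, median-of-ratios scaling, no variance trend, leaving out each mouse, 12-week-old mice alone, a replicate block, the adjusted p alone, and the deposited RPKM. Python 3.11.15, numpy 2.4.6, pandas 2.3.3, scipy 1.17.1, numba 0.67.0 and matplotlib 3.10.9 were used.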

Additional observations from a re-analysis of the deposited data

How the results depend on the processing

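With recovered counts, the number of members past the cut-offs was 10 under both other pseudocounts, no filter and median-of-ratios scaling. It was also 10 for genes with a count in all 6 mice, which were the same genes as in the main fit. The adjusted p alone, which reuses the main fit, gave 10 as well. The number was 7 to 9 without a variance trend, with the block or with any mouse left out. Without the variance trend 4 members increased, not 7. The 12-week-old mice alone gave 6 members past the cut-offs, 3 of them increased. The 3 decreases passed in each of these fits. The cause of the lost calls was not tested beyond the smaller number of mice in the fits that leave some out. Some members that missed the cut-offs changed sign in other fits. Over the fits that leave out 1 mouse, *Plxna3* ranged from -0.112 to 0.0117, *Sema3d* from -0.202 to 0.220, *Sema4b* from -0.0406 to 0.0369, *Sema5b* from -0.263 to 0.0309, *Sema6a* from -0.0739 to 0.0655 and *Sema6b* from -0.0174 to 0.0931. In the 12-week-old mice alone *Sema3d* was at -0.0523, *Sema6a* at 0.0588 and *Sema6b* at -0.062.

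In the labels used here the replicate numbers mark a shared age, and litter and batch are not given. The deviations of same-numbered mice correlated at -0.18, -0.11 and -0.08 across genes. With 3 mice per genotype these values cannot show whether the numbers pair the mice. With the replicate number as a block, 9 members and 1697 of all genes passed, against 10 and 2001 without it, and *Nrp2* was the member lost (0.56, limma, adjusted p = 0.061).

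On the deposited RPKM as they stand, 14 of 7974 genes passed, and 0 members (0 increased and 0 decreased) and 0 pathway genes did. By construction these values carry a different length per table. Signs then turned for *Plxna3* (1.34), *Plxnb1* (-2.68), *Plxnb2* (-0.73), *Sema3c* (-0.87), *Sema4a* (-1.36), *Sema4g* (0.71), *Sema5a* (-0.16), *Sema6a* (2.45), *Sema6d* (-0.67) and *Sema7a* (1.334). The members with the fewest reads, *Sema3b*, *Sema3d* and *Sema3g*, had 95 to 487 reads per library. The sums without *Cck* or *Slc1a2* and the pathway count without *Cd72* (8) were added after seeing the data.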
